A study of Mus musculus with 2 samples.

Results

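The miR-148 and miR-152 family comprised 3 of the 2202 microRNA genes counted in adrenal gland, Mir148a, Mir148b and Mir152, taken by their GENCODE M21 gene names on chromosomes 6, 15 and 11. All 3 were detected, that is, they had at least 10 sense-strand counts in both libraries, as had 352 genes in all. The tissue came from male B6CASTF1/J mice aged 25 days, which are first-generation hybrids of C57BL/6J and CAST/EiJ. There was 1 group of 2 biological replicates, with no treatment, genotype or second tissue to set against it. Both animals carry the same donor entry in the labels, although they are numbered apart. Whether that entry marks the strain or 1 animal is unclear, so the spread between the libraries may be in part technical.

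The adrenal gland joins a steroid-producing cortex to a catecholamine-producing medulla. A microRNA hairpin is cut from a longer transcript and yields a short mature strand. That strand guides Argonaute to messenger RNAs mainly through its seed, bases 2 to 8. The family is known for repressing the DNA methyltransferase gene Dnmt1, and miR-148a is abundant in liver. The 3′-arm (3p) mature strands of the 3 hairpins differ in few bases, and the hairpins are transcribed from separate loci.

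The mature sequences are shown because the shared seed is what makes these hairpins a family, and because the bases outside it decide whether reads of the members can be told apart. They are RefSeq records on GRCm38.p6, whose hairpin positions equal those of GENCODE M21 on mm10, and all 3 hairpins matched. In the 3p strands the seed is in capitals.
miR-148a-3p: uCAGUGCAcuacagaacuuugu
miR-148b-3p: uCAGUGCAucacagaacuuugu
miR-152-3p: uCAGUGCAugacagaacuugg

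All 3 carried the same seed, and among 1679 listed mouse mature microRNAs these 3 were the only ones with it at bases 2 to 8. Counted from 1 at the 5′ end, miR-148b-3p differed from miR-148a-3p by C9U and U10C, and miR-152-3p differed from it by C9U, U10G and U20G. The first 8 bases were therefore the same in every member, and the differences began just after the seed. miR-148b-3p and miR-152-3p differed from each other by C10G and U20G. The longest run shared by any pair of 3p strands was 12 bases.

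The opposite, 5p strands are shown because their seeds, again in capitals, are not the same in all members.
miR-148a-5p: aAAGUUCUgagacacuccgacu
miR-148b-5p: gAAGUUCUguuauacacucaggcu
miR-152-5p: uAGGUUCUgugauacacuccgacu
miR-148a-5p and miR-148b-5p had the same seed, and miR-152-5p had one found in no other listed mature microRNA. Compared position by position from the 5′ end without gaps, miR-148a-5p was identical to miR-148b-5p at 13 of 22 positions and to miR-152-5p at 12 of 22, and miR-148b-5p to miR-152-5p at 19 of 24. The first of these strands is 22 bases long and the others 24, so a count without gaps can understate the likeness of miR-148a-5p to them. Its longest run shared with miR-152-5p was 11 bases, where their 3p strands shared 9. The deposited counts are per hairpin and do not separate the arms.

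The whole hairpins, with both mature strands in capitals, show where these strands lie in each stem.
Mir148a: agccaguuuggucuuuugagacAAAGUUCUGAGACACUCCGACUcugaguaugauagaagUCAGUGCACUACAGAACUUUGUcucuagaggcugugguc
Mir148b: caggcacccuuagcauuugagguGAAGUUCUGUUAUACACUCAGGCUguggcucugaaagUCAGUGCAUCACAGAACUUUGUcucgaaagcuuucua
Mir152: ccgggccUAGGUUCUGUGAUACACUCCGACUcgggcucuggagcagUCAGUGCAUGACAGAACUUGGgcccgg
The Mir152 hairpin was the shortest, at 73 bases, and the richest in G and C, at 61.6%. The Mir148a and Mir148b hairpins were 99 and 97 bases long with 45.5% and 45.4% G and C. Minimum free energies predicted with RNAfold were -43.5 kcal/mol for Mir152, -41.0 kcal/mol for Mir148a and -30.9 kcal/mol for Mir148b. Reads with several mapping places were not assigned to genes, which lowers the counts of hairpins with near-identical copies. Among all 2202 annotated hairpins the longest run of bases shared with another was 15 for Mir148a and for Mir148b, which share it with each other, and 12 for Mir152, which shares it with Mir148a.

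The 3 loci were of unlike kinds. Mir148a (ENSMUSG00000065505.1) lies on the minus strand of chromosome 6 (mm10, 51269812 to 51269910) and overlaps no annotated gene. The nearest protein-coding genes are Nfe2l3, 162760 bases away on the higher-coordinate side, and Npvf, 615373 bases away on the other. Mir148b (ENSMUSG00000065560.1), on the plus strand of chromosome 15 (103285125 to 103285221), lies in the first intron of Copz1 on the same strand. That intron is 16159 bases long. Mir152 (ENSMUSG00000065515.1), on the plus strand of chromosome 11 (96850393 to 96850465), lies in the first intron of Copz2, also on the same strand, and that intron is only 676 bases long. Copz1 and Copz2 encode the paralogous zeta subunits of the COPI coat, which moves vesicles within the Golgi and back to the endoplasmic reticulum. None of the 3 has another annotated microRNA gene within 50 kb, so each stands alone rather than in a cluster.

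Levels are sense counts per 1000000 sense counts on all microRNA genes (CPM). The totals were 4541373 in replicate 2 and 3588361 in replicate 1. They were made up unequally, because Mir122, the dominant hepatocyte microRNA, took 19.8% of the sense counts in replicate 2 and 0.0892% in replicate 1. The members' levels are therefore also given with Mir122 left out of the total, which left 3644211 counts in replicate 2 and 3585160 in replicate 1. The liver list of 8 hairpins summed to 200573 CPM in replicate 2 and 1417 CPM in replicate 1, with none at 0 in either. Its 7 members other than Mir122 summed to 3764 CPM in replicate 2 and 525 CPM in replicate 1 with Mir122 out of the totals. The neuroendocrine and chromaffin list was taken as a marker list for the medulla, a tie that was not tested. It had 8 of 8 members detected and summed to 34383 CPM in replicate 2 and 40675 CPM in replicate 1. With Mir122 out of the totals the order of the libraries turned, with 42848 CPM in replicate 2, against 40711 CPM in replicate 1. Most of that sum was Mir375, at 36144 CPM in replicate 2 and 33410 CPM in replicate 1. Under these totals the members did not move alike, with ratios of replicate 2 over replicate 1 from 0.611 for Mir183 to 1.84 for Mir7-2.

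Mir148a was the most abundant member in both libraries. It had 4449 counts in replicate 2 and 2237 in replicate 1, or 980 CPM in replicate 2 (95% interval 951 to 1009) and 623 CPM in replicate 1 (598 to 650). The intervals are exact (Clopper-Pearson) and take in counting error alone, and copies made by PCR are not told apart from separate molecules. Its mean was 802 CPM ± 252 (SD, n = 2), rank 87 of the 352 detected hairpins, above 75.3% of them. With Mir122 out of the totals the level was 1221 CPM in replicate 2 and 624 CPM in replicate 1, with a mean of 922 ± 422. Replicate 2 was the higher library under both totals, and the counting intervals of the libraries did not overlap under either.

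Mir152, the Copz2-hosted member, came next by mean. It had 1089 counts in replicate 2 and 584 in replicate 1, or 239.8 CPM in replicate 2 (226 to 254) and 163 CPM in replicate 1 (149.8 to 176). The mean was 201 CPM ± 54.5 (SD, n = 2), rank 150 of 352. With Mir122 out of the totals it stood at 299 CPM in replicate 2, against 163 CPM in replicate 1. As for Mir148a, replicate 2 was higher under both totals without overlap of the counting intervals.

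Mir148b, the Copz1-hosted member, was close to Mir152 in replicate 1 and well below it in replicate 2. Its counts were nearly equal, 583 in replicate 2 and 600 in replicate 1, although replicate 2 had the larger total. These gave 128 CPM (118 to 139) in replicate 2 and 167 CPM (154 to 181) in replicate 1. The mean was 147.8 CPM ± 27.5 (SD, n = 2), rank 168 of 352. With Mir122 out of the totals it stood at 160.0 CPM in replicate 2, against 167 CPM in replicate 1, with a mean of 164 ± 5.22. Which library was higher did not change with the total, but the counting intervals overlapped once Mir122 was left out.

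**Figure D1:**
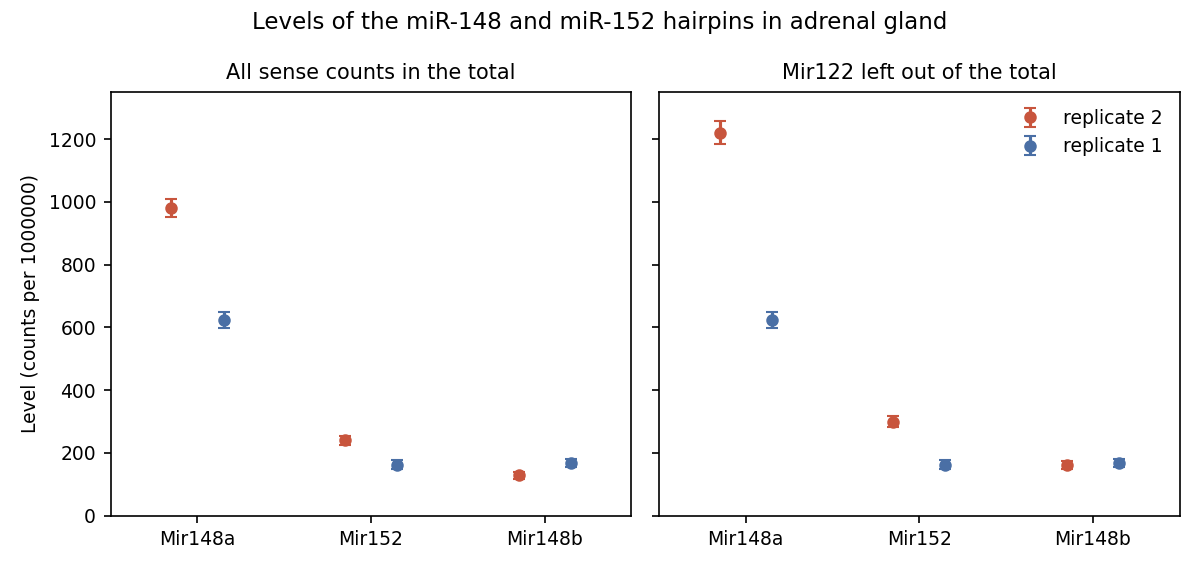
Level of each hairpin in counts per 1000000 of the sense total (left) and of the total without Mir122 (right), with exact 95% counting intervals, replicate 2 left of replicate 1. Mir148a lies between 623 and 1221 CPM, above both other members in every case, while Mir152 is higher in replicate 2 and Mir148b is lower there or near its replicate 1 level.

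Over both libraries Mir148a lay above Mir152 and Mir148b with no overlap between genes. Mir152, at 163 to 239.8 CPM, and Mir148b, at 128 to 167 CPM, overlapped, so the order of these neighbours did not hold beyond their spread. All members lay far above the limit that a count of 0 allows, 3 counts, which is worth 0.661 CPM in replicate 2 and 0.836 CPM in replicate 1. Nearly all reads were on the annotated strand. Antisense counts were 0 at Mir148a and Mir148b in both libraries and 1 at Mir152 in replicate 2.

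**Figure D2:**
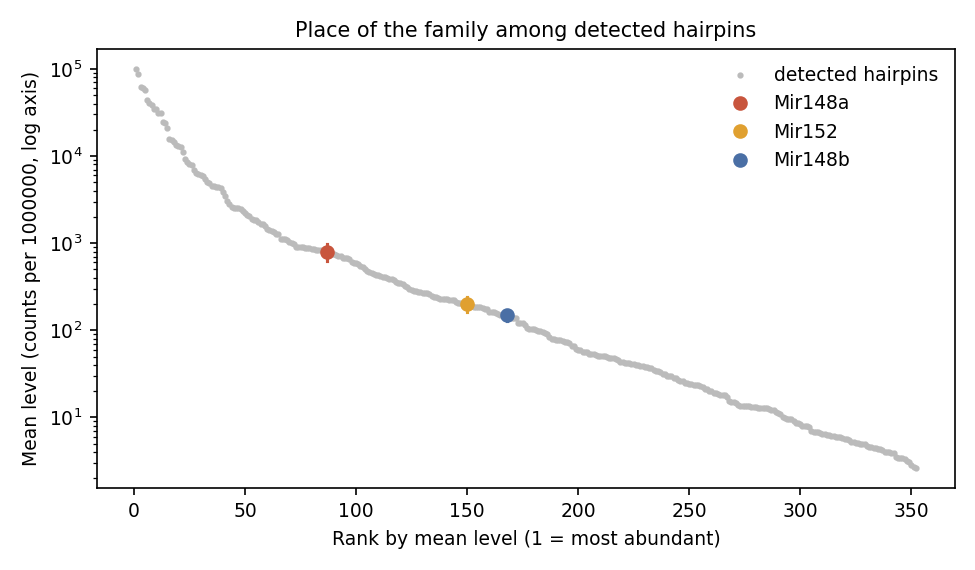
Mean level of the 352 detected hairpins against their rank, on a log axis, with the family members in colour and a vertical line from the lower to the higher library. Mir148a stands at rank 87, Mir152 at rank 150 and Mir148b at rank 168, all in the upper or middle part of the range.

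Together the family was a small part of the pool. Its counts summed to 6121 in replicate 2 and 3421 in replicate 1, which is 0.135% and 0.0953% of the sense counts, with a mean of 0.115% ± 0.0279 (SD, n = 2). With Mir122 out of the totals the shares were 0.168% in replicate 2 and 0.0954% in replicate 1. Mir148a supplied 72.7% of the family's counts in replicate 2 (71.5 to 73.8) and 65.4% in replicate 1 (63.8 to 67.0). Mir152 kept a like share, 17.8% (16.8 to 18.8) in replicate 2 and 17.1% (15.8 to 18.4) in replicate 1. Mir148b supplied 9.52% (8.80 to 10.3) in replicate 2 and 17.5% (16.3 to 18.9) in replicate 1. The shares that differed were thus those of Mir148b and Mir148a, though shares of a sum do not show which member moved.

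Ratios between members of the same library do not depend on the total, so Mir122 cannot move them through it. Mir148a had 7.63 times the counts of Mir148b in replicate 2 (7.0 to 8.33) and 3.73 times in replicate 1 (3.41 to 4.09). That ratio was 2.05 times as large in replicate 2 as in replicate 1, with an exact conditional interval of 1.80 to 2.32. Against Mir152, Mir148a had 4.09 times the counts in replicate 2 (3.82 to 4.37) and 3.83 times in replicate 1 (3.50 to 4.20). These differed by a factor of 1.07, whose interval of 0.951 to 1.20 included 1.

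Mir152 against Mir148b gave 1.87 in replicate 2 (1.69 to 2.07) and 0.973 in replicate 1 (0.867 to 1.09). The change was by a factor of 1.92 (1.64 to 2.24). In replicate 1 the intronic members were indistinguishable at this depth, whereas in replicate 2 Mir152 was the higher. Mir148a and Mir152 therefore moved by like factors between the libraries, and Mir148b moved apart from both. With 1 library on each side these intervals hold for the reads of these libraries and not for mice in general.

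**Figure D3:**
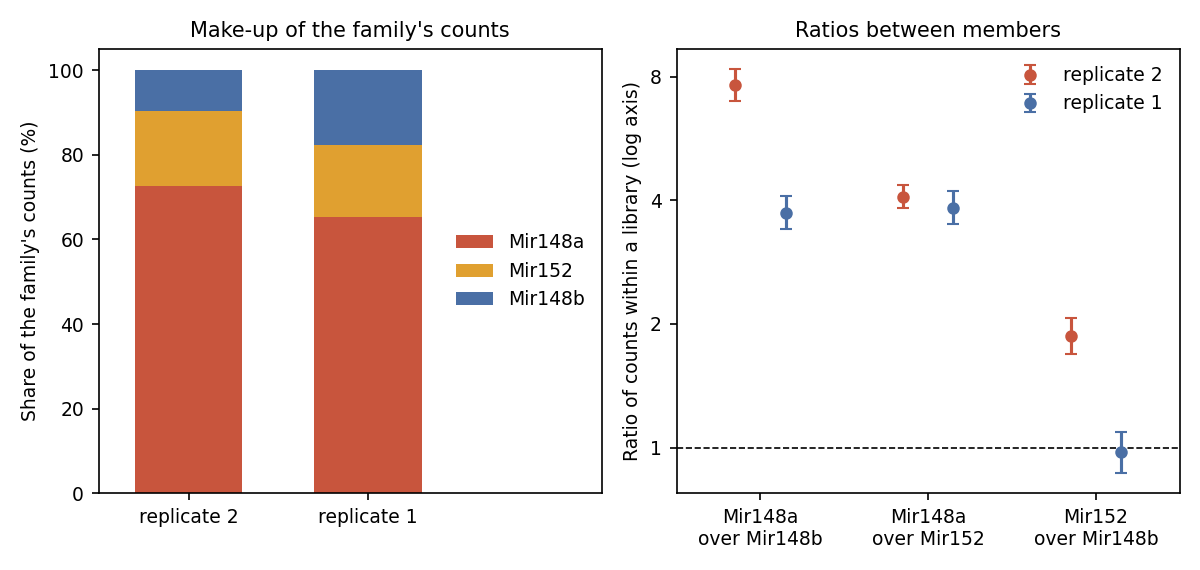
Left, share of the family's counts held by each member in each library. Right, ratio of counts between members within a library on a log axis, with exact 95% intervals and a dashed line at 1. The ratio of Mir148a to Mir152 is 4.09 in replicate 2 and 3.83 in replicate 1, while the other ratios are about 2 times as large in replicate 2.

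The libraries were then compared over all detected hairpins with an exact two-sided binomial test on reads, adjusted by Benjamini-Hochberg, at a threshold of 0.05. The test compares these libraries, not conditions, and weighs differences against counting error alone. All 3 members passed it, where 67.0% of the 352 detected hairpins did. Mir148a was 1.57-fold higher in replicate 2 (1.49 to 1.65, adjusted p = 3.56e-70 by the exact binomial test) and Mir152 was 1.47-fold higher (1.33 to 1.63, adjusted p = 4.63e-14 by the same exact test). Among all detected hairpins 30.4% were called higher there. Mir148b was at 0.768 of its replicate 1 level (0.684 to 0.862, adjusted p = 1.43e-05 by the exact test), and 36.6% of detected hairpins were called lower.

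Leaving Mir122 out of the totals ended the call for Mir148b. It then stood at 0.956 of its replicate 1 level (0.851 to 1.07), with an adjusted p of 0.511 by the exact binomial test. Mir148a became 1.96-fold higher (1.86 to 2.06) and Mir152 1.83-fold higher (1.66 to 2.03), and both kept their calls. Under these totals 71.2% of the other 351 detected hairpins were called, 49.9% higher and 21.4% lower in replicate 2. The median detected hairpin other than Mir122 moved to 0.26 on the log2 scale, against -0.04 with all counts in the totals.

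A change of total shifts every log2 ratio nearly alike, so the members' places relative to that median hairpin could hardly depend on it. The log2 ratio of Mir148a lay 0.69 above the median with all counts and 0.70 above it without Mir122. For Mir152 these distances were 0.60 and 0.61, and for Mir148b they were -0.34 and -0.33. Differences of that size were common between these libraries. Of the 352 detected hairpins 29.3% lay farther from the median than Mir148a, 34.7% farther than Mir152 and 57.1% farther than Mir148b.

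**Figure D4:**
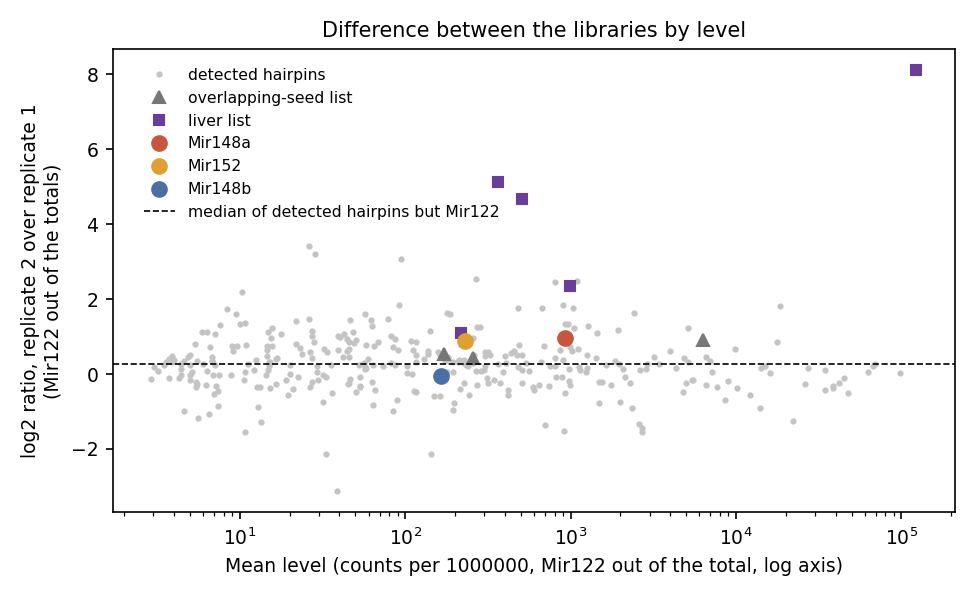
log2 ratio of replicate 2 over replicate 1 against mean level for the 352 detected hairpins, with Mir122 out of the totals and a dashed line at the median of all but Mir122, 0.26. Mir148a and Mir152 lie above the line and Mir148b below it, all inside the main cloud, while 4 of the 5 detected liver-list hairpins stand above Mir148a by a clear distance and Mir101a lies close to it.

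Markers of other tissues moved between the libraries too, and their part in the family's differences was not tested. All 5 detected hairpins of the liver list were called higher in replicate 2, where 30.4% of detected hairpins were. With Mir122 out of the totals the 4 other than Mir122 were also called higher, where 49.9% of detected hairpins were. Each of the 5 had a higher ratio than Mir148a. The smallest was that of Mir101a, a hairpin abundant in liver and many other tissues. Its level was 238 CPM in replicate 2, against 138 CPM in replicate 1, a ratio of 1.73, or 2.15 with Mir122 out of the totals. The other 3 hairpins of the list, Mir194-1, Mir802 and Mir1948, had 27, 270 and 113 counts in replicate 2 and 1, 1 and 9 in replicate 1.

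The pancreatic acinar list, which includes Mir217, summed to 6 counts in replicate 2 and 2 in replicate 1, with Mir216a and Mir216b at 0 in replicate 1. The leukocyte list ran the other way. Its 6 members, all detected, summed to 2832 CPM in replicate 2 and 5011 CPM in replicate 1, and all 6 were called lower in replicate 2, where 36.6% of detected hairpins were. With Mir122 out of the totals the sums were 3530 CPM in replicate 2 and 5016 CPM in replicate 1, and 5 were called lower, where 21.4% of detected hairpins were. The striated muscle list had 6 counts in replicate 2 and 3610 in replicate 1, nearly all from Mir206. In replicate 2, 5 of its 8 members were at 0, and in replicate 1 it was 1 of them. Those at 0 in replicate 2 included the numbered copies of Mir1a and Mir133a, whose reads may map to several places and so go uncounted. The kidney list holds 5 hairpins, shares 3 of them with the liver list and summed to 1400 CPM in replicate 2 and 106 CPM in replicate 1. Of the hairpins it does not share, Mir204 had 162 counts in replicate 2 and 174 in replicate 1. With all counts in the totals Mir204 was called lower, at 0.736 of its replicate 1 level, where 36.6% of detected hairpins were. With Mir122 out of the totals it stood at 0.916 (0.735 to 1.14). Its adjusted p was then 0.508 by the exact binomial test, and it was not called. Mir215 had 6 counts in replicate 2 and 2 in replicate 1. In whole tissue a change in the share of a cell type cannot be told apart from a change in its RNA per cell.

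The miR-130 and miR-301 hairpins were set beside the family because 3p strands of this group hold the same 7 bases shifted by 1 position. The 3p strand of Mir301b was not analysed here. The capitals in miR-130a-3p mark them.
miR-130a-3p: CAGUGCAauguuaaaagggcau
Of the listed mature microRNAs, 7 begin with these bases, among them miR-130a-3p, miR-130b-3p and miR-301a-3p. The seed of those 3 at bases 2 to 8 is therefore a different one, which overlaps that of miR-148a-3p in 6 bases.

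Mir130a was far more abundant than any member of the family, with 6594 CPM in replicate 2 and 4389 CPM in replicate 1. Its ratio was 1.5, or 1.87 with Mir122 out of the totals. Mir130b stood at 237 CPM in replicate 2, against 221 CPM in replicate 1. Mir301 stood at 163 CPM in replicate 2, against 139.6 CPM in replicate 1, so both lay in the range of Mir152 and Mir148b. Mir301b had 6 counts in replicate 2 and 26 in replicate 1 and was not detected by the count rule. Of the 3 detected hairpins 2 were called higher in replicate 2 with all counts in the totals, where 30.4% of all detected hairpins were, and all 3 with Mir122 out, where 49.9% were. The list summed to 6996 CPM in replicate 2 and 4757 CPM in replicate 1, where the family summed to 1348 CPM in replicate 2 and 953 CPM in replicate 1.

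The hairpins most like each member over the 2 libraries were those with the smallest distance on the log2(CPM + 1) scale. For Mir148a these were Mir27a, Mir15b and Mir425, at distances of 0.24 to 0.26. Mir425, with 1110 CPM in replicate 2 and 547 CPM in replicate 1, had a ratio of 2.03, and Mir27a one of 1.25. For Mir152 they were Mir193b, Mir101a and Mir222, at 0.20 to 0.28, with ratios from 1.56 to 1.76. For Mir148b they were Mir125b-2, Mirlet7a-2 and the hairpin annotated as mmu-mir-3535, at 0.19 to 0.37, with ratios from 0.827 to 1.02. Of these 9 hairpins, Mir27a, Mir101a, Mir125b-2 and Mirlet7a-2 share 20 to 24 bases with a paralogue, and their counts may be too low.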

How the data were processed

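MicroRNA sequencing libraries were made from total RNA with a multiplexed protocol for short molecules, per the labels. The authors deposited raw counts of reads per microRNA gene, from alignments to mm10 with GENCODE M21, per the accompanying text files. Which aligner and which trimming were used is not given in the sources used here. The 4 summary lines name no gene and stayed out of totals. Of 10284575 reads in replicate 2, they held 22.8% as unmapped, 27.0% as multiply mapped and 5.99% as lying on none of the counted microRNA genes. In replicate 1 these shares were 21.3%, 31.6% and 5.73% of 8666085.

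The sense-strand column was used. Detection needed 10 counts in both libraries, and log2 ratios a pseudocount of 1 CPM. Hairpins left out of the totals were not tested against them. With 2 libraries of 1 group no count model of a condition could be fitted. The binomial test was checked on simulated data. How well each sequence was captured, and how reads of CAST/EiJ alleles aligned, was not tested.

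The members, marker lists and tests were chosen with earlier results of these data known. Named genes were the members, the liver and overlapping-seed lists, hairpins within 50 kb, host genes and the 3 hairpins nearest to each member. Others were named from the marker lists after their values were seen. Alternatives were totals without Mir122 or the liver list, all input reads, edgeR 4.0.16 TMM factors, DESeq2 1.42.0 size factors, the either-strand column, other minimums and pseudocounts, and each library alone. Other tools were Python 3.11.15, scipy 1.17.1, pandas 2.3.3, matplotlib 3.10.9, R 4.3.3 and ViennaRNA 2.7.2.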

Additional observations from a re-analysis of the deposited data

How the results depend on the processing

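Mir148a and Mir152 stayed higher in replicate 2 and past the threshold under all 10 alternatives tried for their ratios, with log2 ratios of 0.62 to 0.97 for Mir148a and 0.53 to 0.88 for Mir152. Mir148b stayed lower under all 10, at -0.41 to -0.06, but lost its call with Mir122 out of the totals (-0.065, adjusted p = 0.511 by the exact binomial test) and with the liver list out (-0.060, adjusted p = 0.549). Over the alternatives its adjusted p ran from 3.03e-06 to 0.549 by that exact test. Not all 10 could change the outcome. Other minimums cannot move a ratio, other pseudocounts cannot move a call, and the TMM factors left the totals almost unchanged.

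Hairpins called higher in replicate 2 numbered 107, and 175 with Mir122 out of the totals and 172 with the liver list out, while those called lower numbered 129, 75 and 74. Higher calls were 45.3% of all calls in the main totals, 70.0% and 69.9% with those totals, and 53.0% per input read.

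Scaled per 1000000 input reads the mean levels were 345 for Mir148a, 63.0 for Mir148b and 86.6 for Mir152, and the family share was 0.0495%, which follows from the larger total. With the either-strand column, whose total leaves out reads at hairpins with an opposite-strand partner, all members averaged higher than with the sense column. Mir148a then averaged 951 CPM, Mir152 239 CPM and Mir148b 176 CPM.

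With replicate 2 alone and replicate 1 alone, Mir148a had 980 and 623 CPM, Mir148b 128 and 167 CPM, Mir152 239.8 and 163 CPM, and the family share was 0.135% and 0.0953%. The ratio of Mir148a to Mir148b averaged 5.68 and was 7.63 and 3.73, that of Mir148a to Mir152 was 4.09 and 3.83, and that of Mir152 to Mir148b 1.87 and 0.973. No paired analysis was possible because there is a single group. With 1 library on each side of a ratio, depth limits only the counting error.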
